A study of Mus musculus with 12 samples.

Results

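The ventral tegmental area (VTA), a midbrain nucleus, was compared between mice of 18 and 2 months of age. All 8 arrays of these ages, of 12 in the series, were taken by their titles, 4 for each age. Every mouse was of the C57BL/6 strain (C57 in the labels) and wild type, and each array held RNA pooled from the dissected VTA of 5 mice, so that a value describes a pool and not a single mouse. The other 4 arrays, of mice of 10 months, entered the fit for the estimate of the spread and are given where they bear on a result. Young arrays 3 and 4 had nearly the same values (correlation 0.998, against 0.967 to 0.996 in the 17 other pairs of one age). They were averaged and counted as 1 sample, which left 3 young samples beside 4 samples of each later age. Counts with all 12 arrays separate are given for the totals, the strictest gene set and the main gene lists.

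The VTA holds dopaminergic neurons that project to the nucleus accumbens and the prefrontal cortex and serve reward and motivation, together with GABAergic and glutamatergic neurons, astrocytes, oligodendrocytes and microglia. In ageing brain, microglia and antigen presentation genes are known to be more active, while genes of precursor cells and of neuronal growth are known to decline. Because whole tissue was used, fewer cells of a type and less RNA per cell cannot be told apart.

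The arrays carry several probe sets for many genes, each of which reads another stretch of the transcript or of its variants. A probe set was taken as well expressed when its mean over the samples was above the median of the arrays (6.15 on the log2 scale). At least 1 such probe set was present for 12231 named genes, of which 5042 had 2 or more and 7189 had 1. Calls required an adjusted p under 0.05 in limma together with a change over 1.3-fold. In what follows a gene rose or fell when all of its well-expressed probe sets changed with the same sign and at least 1 was called.

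Dopaminergic identity of the tissue was checked with 12 marker genes, and 12 of them were well expressed. Their mean log2 level was 10.8 to 11.0 in young samples and 11.0 to 11.1 in old ones. The mean of 5 microglial markers was 8.49 to 8.66 in young and 8.90 to 9.13 in old samples, and that of 4 astrocyte markers 10.1 to 10.3 and 10.3 to 10.8. Of the 5 microglial markers P2ry12 (1.58 ± 0.23) and Tmem119 (0.51 ± 0.14) were called, and Cx3cr1, Csf1r and Aif1 were not. None of the 4 astrocyte markers was called at its brightest probe set. They changed by 0.43 ± 0.41 (Gfap), 0.27 ± 0.17 (Aqp4), 0.59 ± 0.22 (Slc1a3) and 0.51 ± 0.23 (Aldh1l1). Choroid plexus markers (2 of 4 well expressed) had a mean level of 5.69 to 6.30 at 2 months and 5.29 to 5.81 at 18 months, and no pituitary marker of 2 was well expressed. Hypothalamic markers (3 of 4 well expressed) had a mean level of 7.06 to 7.30 at 2 months and 6.88 to 7.28 at 18 months. Among them Pmch read 7.1, 8.7 and 7.8 in young samples and 7.9, 7.5, 7.7 and 9.0 in old ones. The cortical marker Neurod6 was also well expressed, at 7.7, 7.7 and 7.5 and then 7.4, 7.7, 6.9 and 6.3. Pmch and Neurod6 were not called. Among the choroid plexus markers Ttr, which encodes transthyretin, read at its brightest probe set 9.92, 7.29 and 7.64 in young samples and 5.83, 5.84, 6.65 and 7.13 in old ones. It was highest in young array 1 and had no overlap, but was not called (−1.92 ± 0.70 SE, adjusted p = 0.122). Clic6 was called higher (0.76 ± 0.19), and Folr1 and Kl lay below the level of well-expressed probe sets. Sex-linked genes varied between pools. Xist read 9.5, 8.8 and 8.8 in young samples and 9.9, 10.6, 7.6 and 10.8 in old ones. Eif2s3y read 8.9, 9.6 and 8.6 and then 7.5, 8.3, 8.6 and 8.5. Neither was called. Whether the pools differed in their mix of sexes was not tested. The Actb and Gapdh control probe sets also differed with age. The value at the 3′ end exceeded that at the 5′ end by 3.29 to 3.63 at 2 months and by 1.64 to 2.17 at 18 months (log2), with no overlap. The poly-A control RNAs added before labelling were at 5.67 to 5.83 in young and 6.23 to 6.89 in old samples, also without overlap. Whether RNA integrity or the reach of the label along a transcript set the 3′ to 5′ measure was not tested. This measure, the poly-A controls and age cannot be told apart in these samples. With the 3′ to 5′ measure as a covariate no probe set was called at 18 against 2 months.

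Of 45037 probe sets, 3359 (7.46%) were called, 2047 (4.55%) higher and 1312 (2.91%) lower at 18 months. The shares were 8.57% and 4.2% of the 20095 named probe sets that were well expressed. With 12 separate arrays the numbers were 2632 and 1828. At the gene level, 1004 of 12231 genes (8.21%) rose and 371 (3.03%) fell, against 10.1% and 4.42% with 12 separate arrays. In the genes whose brightest probe set was above the upper quartile of level these shares were 9.74% and 2.79%. Among the 5042 genes with 2 or more well-expressed probe sets, 386 (7.66%) rose and 183 (3.63%) fell, against 475 and 252 with 12 separate arrays. After median centring of each array the share of higher among called probe sets was 73.3%, against 60.9% as deposited. Young array 1 carried much of the count, since without it 294 probe sets were higher and 129 lower. Without young array 2 these numbers were 1066 and 602, without 10 month array 3 they were 3134 and 2192, and without any one array of 18 months 1937 to 2111 were called in all.

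The strictest set consisted of genes with 2 or more well-expressed probe sets, every one called in the same direction. These were 30 genes that rose (0.595% of 5042) and 17 that fell (0.337%). With 12 separate arrays 55 rose and 21 fell, and these included 29 of the 30 and all 17. Without young array 1 there were 4 and 0, without 10 month array 3 there were 75 and 28, and over the other samples left out 11 to 44 and 2 to 17. Of the 30 genes named below, H2-K1, B2m, Slc14a1, Rnf13, Yipf2 and Tmie were still called at the brightest probe set without young array 1. Further probe sets of these genes lay below the level of 6.15, and 13 of 19 of the genes that rose and 2 of 13 of those that fell had the opposite sign there. All 61 well-expressed probe sets of this set that were higher and all 37 that were lower had no overlap between 2 and 18 months. They were chosen for a difference between these same samples, so that this is a description and adds no support. Among all tested probe sets 23.6% had no overlap, 10.4% with the old samples higher and 13.1% lower.

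Ordered by the smallest change among a gene's well-expressed probe sets, H2-K1 was the first and B2m the third of the 30 genes that rose. H2-K1 and H2-D1 encode heavy chains of MHC class I, the molecules that display peptides on the cell surface, and B2m encodes their shared light chain. At the brighter probe set of B2m the 2 month samples had log2 values of 10.07, 9.95 and 10.43, and the 18 month samples 11.45, 11.13, 11.36 and 11.23. The second probe set read 9.57, 9.84 and 10.07 at 2 months and 11.35, 11.15, 11.35 and 11.09 at 18 months. All old samples thus lay above all young ones at both, with log2 changes of 1.14 ± 0.13 and 1.41 ± 0.13 (SE; limma adjusted p = 0.0036 and 0.00236). H2-K1 was measured by 3 well-expressed probe sets. The brightest read 8.41, 9.18 and 9.26 at 2 months and 10.11, 9.92, 10.27 and 10.44 at 18 months. Young array 1 was the lowest of all samples, and the groups did not overlap. The changes of the 3 probe sets were 1.24 ± 0.20, 1.51 ± 0.18 and 1.32 ± 0.16 (SE). H2-D1 had 4 well-expressed probe sets, all higher at 18 months, and 3 of them were called with changes of 1.09 to 1.38. The fourth changed by 0.55 ± 0.18 and was not called (adjusted p = 0.0785). The called probe sets of H2-K1 and H2-D1 are of a type that can hybridise to related genes, so that the 2 heavy chains may share signal. Of 9 MHC class I genes measured these 3 rose (also with 12 separate arrays) and 0 fell, while 6 were not called, with a median change of 0.37 at the brightest probe set, against 0.05 over all genes.

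Upstream sequences of these genes are shown because the 3 members moved together. Class I promoters are known to carry a binding site for NF-κB and one for interferon-regulated factors. The motifs GGNATTCC and AANTGAAA, chosen after the sequences had been seen, were searched on both strands and stand in capitals. In H2-K1 and H2-D1 the stretch from one motif to the other was 28 bases long, and 27 of them were identical. For H2-D1 and B2m, the 250 bases before the transcript start are also given. All are from RefSeq (GRCm38.p6), 5′ to 3′ on the strand of the gene.
H2-K1, chr17:34000430-34000457, minus strand: GGGATTCCccatctccacagTTTCACTT
H2-D1, chr17:35262924-35262951, plus strand: GGGATTCCccatctcctcagTTTCACTT
H2-D1, chr17:35262844-35263093, plus strand: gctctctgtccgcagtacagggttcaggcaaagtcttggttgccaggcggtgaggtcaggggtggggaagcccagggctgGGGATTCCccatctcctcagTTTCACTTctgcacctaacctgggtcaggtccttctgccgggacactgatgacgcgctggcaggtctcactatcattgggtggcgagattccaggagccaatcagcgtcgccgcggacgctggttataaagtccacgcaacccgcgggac
B2m, chr2:122147437-122147686, plus strand: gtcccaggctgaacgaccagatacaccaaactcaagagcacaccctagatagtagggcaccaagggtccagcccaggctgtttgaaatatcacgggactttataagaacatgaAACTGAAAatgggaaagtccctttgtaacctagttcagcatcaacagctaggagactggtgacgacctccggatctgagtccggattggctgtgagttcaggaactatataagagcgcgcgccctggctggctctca
The first motif was found in 2.83% and the second in 6.6% of the 27025 promoter windows (250 bases before to 50 after a start) in the reference table. B2m held the second and not the first in its window. A match to these letters is a description and does not show that a factor was bound.

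Of the other genes that rose at every probe set, Kcnip1, an auxiliary subunit of Kv4 potassium channels, read 7.41, 7.67 and 8.31 at its brighter probe set in young samples and 9.20, 8.54, 9.29 and 8.73 in old ones. It rose by 1.14 ± 0.28 there and by 1.22 ± 0.20 at the other probe set (SE). Kcns3, a modulatory potassium channel subunit, read 8.15, 8.53 and 8.52 at 2 months and 9.52, 9.38, 9.25 and 9.24 at 18 months at its brighter probe set. Its changes were 0.95 ± 0.17 and 1.98 ± 0.27. Both genes had a gap between the ages. Of 35 potassium channel genes measured, 4 rose (11.4%, against 8.21% of all genes) and 1 fell (2.86%, against 3.03%), and with 12 separate arrays 6 rose and 4 fell. The other 2 that rose were Kcnab1 (1.23 ± 0.24) and Kcnip4 (0.84 ± 0.18 at the brightest probe set), and Kcns2, another modulatory subunit, fell by 0.83 ± 0.13 (adjusted p = 0.00662). Without young array 1 a single member of the list rose, and 2 to 3 fell without young array 2, 10 month array 2 or 3, or 18 month array 4.

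Itfg1, a membrane protein with integrin-like repeats, had the second largest minimum change of the set. Its brighter probe set read 10.38, 11.12 and 10.99 at 2 months and 12.02, 12.26, 12.11 and 12.50 at 18 months, and the changes were 1.40 ± 0.28 and 1.24 ± 0.20. Atp6v1b2, a subunit of the proton pump that acidifies lysosomes, rose by 0.73 ± 0.18 at a bright probe set and by 1.68 ± 0.29 at a dimmer one. The brighter read 11.88, 12.48 and 12.39 in young samples and 12.58, 13.12, 13.04 and 13.20 in old ones, with 18 month array 1 close to young array 2. Its brighter probe set was the only one of the 30 named genes whose change turned sign with the 3′ to 5′ measure as a covariate (−0.08 ± 0.46). The well-expressed probe sets of lysozyme (Lyz1), a bactericidal enzyme, rose by 1.14 ± 0.31 and 1.10 ± 0.29. Both may also read the related gene Lyz2, so that the rise cannot be assigned to Lyz1 itself. Another probe set of Lyz1 lay below the level of well-expressed probe sets. It averaged 4.34 at 2 months and 4.40 at 18 months and was not called (0.06 ± 0.10). At so low a level it cannot decide between the genes. The urea transporter Slc14a1 rose by 0.86 ± 0.11 and 0.78 ± 0.12, and Far2, which reduces fatty acyl-CoA to alcohols, by 0.70 ± 0.13 and 1.35 ± 0.25. The others named by the rule were the co-chaperone Ttc4, the uncharacterised 2900052N01Rik, the vesicle tethering subunit Trappc6b, the ubiquitin ligase Rnf13, the ribosome recycling factor Abce1 and the Wnt pathway protein Dixdc1, with changes between 0.66 and 1.32 at their well-expressed probe sets.

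**Figure D1:**
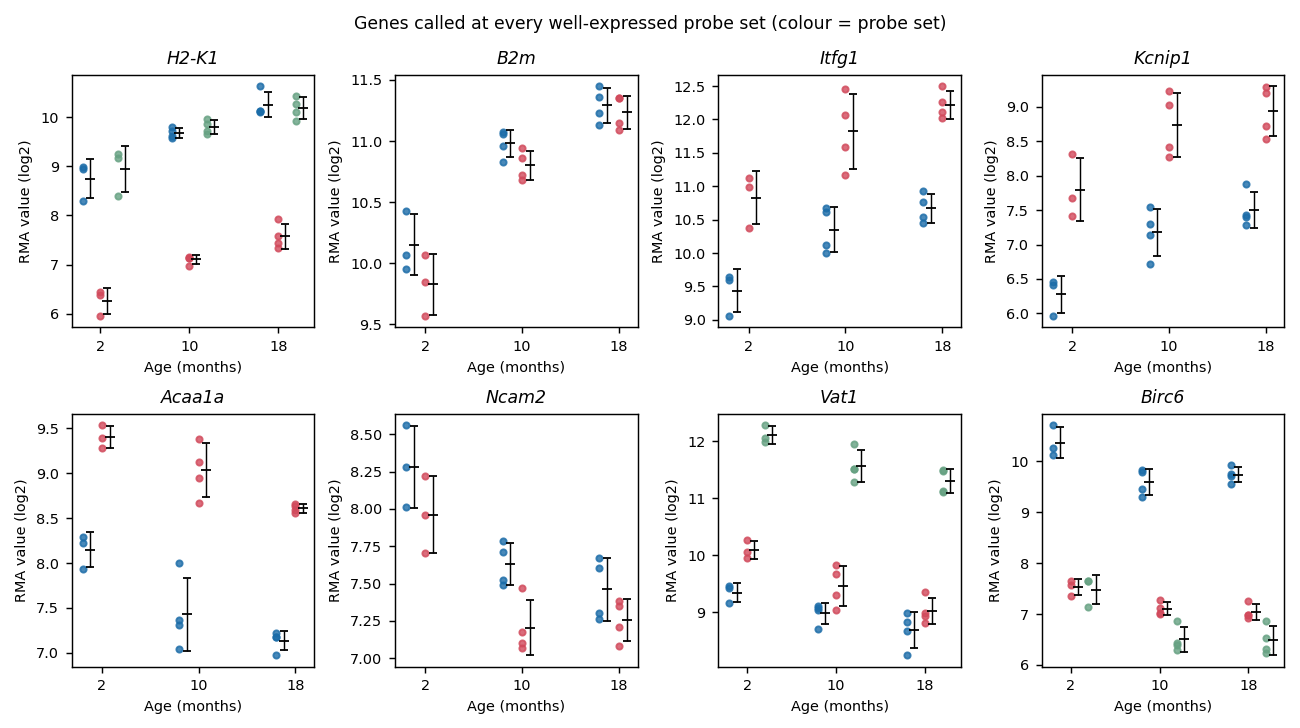
Log2 RMA values of 4 genes that rose (H2-K1, B2m, Itfg1, Kcnip1) and 4 that fell (Acaa1a, Ncam2, Vat1, Birc6) against age. Each colour is a well-expressed probe set, points are samples (n = 3 at 2 months, n = 4 at 10 and at 18 months) and black bars show mean and SD; at every probe set shown all 18 month samples lie on one side of all 2 month samples.

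Of the 17 genes that fell at every probe set, 15 were named. Acaa1a, a thiolase of peroxisomal fatty acid oxidation, read 9.54, 9.40 and 9.29 at 2 months and 8.65, 8.59, 8.64 and 8.55 at 18 months at its brighter probe set. It fell by 0.80 ± 0.15 there and by 1.01 ± 0.19 at the other. Both may hybridise to its near copy Acaa1b. Pank1, which starts coenzyme A synthesis, fell by 0.54 ± 0.12 and 0.74 ± 0.19.

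Ncam2, a neural cell adhesion molecule, read 8.56, 8.28 and 8.01 in young samples and 7.26, 7.30, 7.61 and 7.67 in old ones, and fell by 0.82 ± 0.15 and 0.70 ± 0.15. Efnb1 encodes ephrin-B1, a membrane ligand of axon guidance receptors. It read 8.13, 8.20 and 8.31 at 2 months and 7.57, 7.24, 7.88 and 7.44 at 18 months at the brighter probe set, and fell by 0.68 ± 0.17 and 0.50 ± 0.12. Of 54 axon guidance genes measured 0 rose and 3 fell (1 and 6 with 12 separate arrays), the others being the semaphorins Sema4c (fell by 1.40 ± 0.34) and Sema7a (fell by 0.60 ± 0.15). A further 4 members had called probe sets with mixed signs. Epha5, Sema4a and Plxnb3 each had 1 probe set called higher, and Unc5b had 1 called lower. The median change of the list was −0.07. The number that fell was 0 without young array 1 or without 18 month array 1 or 2, 1 without 18 month array 3, and 5 without 10 month array 3.

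Jarid2, a cofactor of the Polycomb repressive complex PRC2, fell by 0.58 ± 0.12 and 0.73 ± 0.13. Asxl1, another Polycomb-associated protein, read 10.56, 10.70 and 10.63 at 2 months and 10.00, 10.17, 10.36 and 10.16 at 18 months, and fell by 0.46 ± 0.12 and 0.49 ± 0.09. Both were small changes with a gap between the groups. Birc6, a large ubiquitin-conjugating inhibitor of apoptosis, fell at 3 probe sets by 0.63 ± 0.17, 0.49 ± 0.12 and 0.99 ± 0.19. Vat1 fell at 3 probe sets by 0.81 ± 0.17, 1.07 ± 0.19 and 0.66 ± 0.17. The brightest of Vat1 read 12.28, 11.99 and 12.06 in young samples and 11.12, 11.49, 11.48 and 11.11 in old ones. Tmie, known from hair cell mechanotransduction, fell by 1.29 ± 0.21 and 0.59 ± 0.16, and the Golgi protein Yipf2 by 1.29 ± 0.20 and 0.63 ± 0.16. Fam228b, Crispld2, Ttc28, Cinp and Pdap1 completed the named genes, with probe sets that fell by 0.45 to 1.55.

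The probe sets of the strictest set were chosen for their difference between 2 and 18 months, so that their values at 10 months, set against the same samples, are given as a description. The mean at 10 months lay between those at 2 and 18 months for 57 of the 61 probe sets that were higher and for 35 of the 37 that were lower. Among all probe sets called higher or lower it did so for 91.8% and 88.5%, and among all tested for 49.8%. At 10 against 2 months, which uses the same young samples, 15 of the 61 and 4 of the 37 were called, where 1.36% of all probe sets were. At 18 against 10 months 0 were called of either, where 1 of 45037 was (0.00222%). The median change of the 61 was 0.62 from 2 to 10 months and 0.29 from 10 to 18 months, and that of the 37 was −0.50 and −0.20.

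Called genes were seldom called at all of their probe sets. Of 1498 genes with 2 or more well-expressed probe sets and at least 1 called, 569 (38.0%) had the same sign at all of them, against 40.7% of the 3544 genes with none called. In the simplest case of 2 probe sets, 51.5% of 790 called genes and 49.0% of 2404 uncalled genes agreed in sign. In 693 genes the brightest probe set was called. Its change, turned to the direction of the call, had a median of 0.73, and that of the other 1098 probe sets of these genes was 0.05. Of these others 54.6% had the same sign, 137 (12.5%) were called the same way and 54 (4.92%) the opposite way.

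The changes at both probe sets were set against each other in 3194 genes with exactly 2. The correlation across genes was 0.03 at 18 against 2 months, and 0.02 in the 943 genes with both above the upper quartile of level. Genes are not independent replicates, and each pair shares all libraries. With the 3′ to 5′ measure as a covariate the correlation was 0.20, with 59.5% of genes agreeing in sign against 49.6% without it. The measure did not overlap between 2 and 18 months. The adjusted changes are therefore imprecise, and the 0.20 does not show that agreement was restored. Single samples were compared in the same way. The correlation was 0.21 to 0.46 over the 16 pairs of a 10 and an 18 month sample and 0.29 to 0.43 over the 6 pairs of 18 month samples. It was 0.01 to 0.26 over the 12 pairs of an 18 and a 2 month sample, and 0.07 to 0.24 over the 3 pairs of 2 month samples. Over the 12 pairs of a 10 and a 2 month sample it was 0.05 to 0.36 with a median of 0.21, so that the values overlapped with those of pairs without a young sample. The part of the 3′ to 5′ difference in this was not tested.

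**Figure D2:**
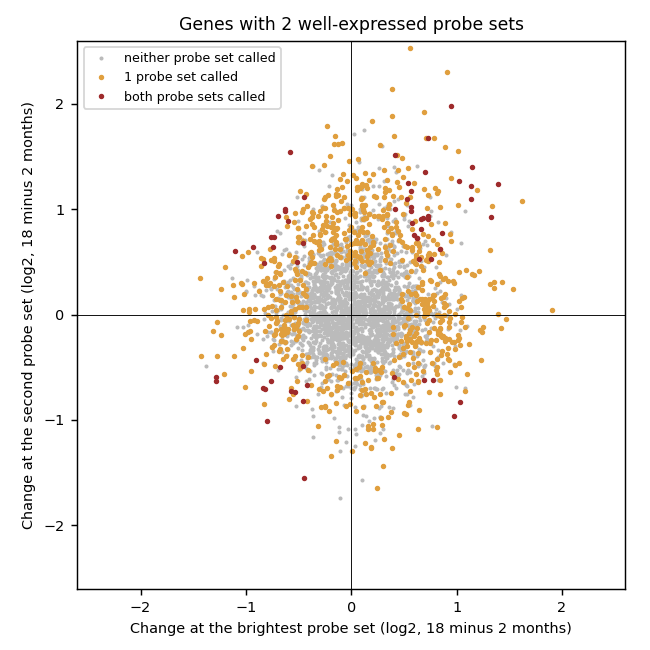
Log2 changes (18 minus 2 months) at the brightest (x axis) and second (y axis) probe set of 3194 genes with 2 well-expressed probe sets. Points are genes, coloured by how many of the 2 were called; the cloud is nearly round (r = 0.03), and genes with both called lie in the quadrants of equal and of opposite sign.

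**Figure D3:**
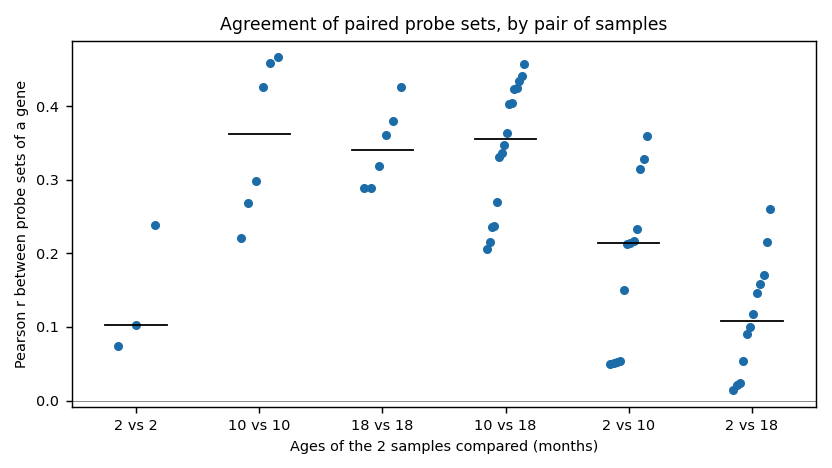
Pearson correlation between the differences of the 2 probe sets of a gene (y axis) for each pair of samples, by the ages compared in months (x axis). Points are pairs of samples, which share samples with each other, and lines are medians; pairs of 18 and 2 months have a median of 0.11 and pairs of 10 and 18 months of 0.36.

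Genes with calls in both directions numbered 73 (1.45% of 5042 and 0.597% of all 12231 genes). Synaptic vesicle genes gave 4 of these among 36 measured, a share that depends on the number of probe sets per gene. Snap25, a membrane fusion protein of the synapse, read 12.58, 12.58 and 12.65 at 2 months and 13.52, 13.55, 13.50 and 13.72 at 18 months at its brightest probe set, and rose there by 0.97 ± 0.19. A second probe set of Snap25 fell by 0.96 ± 0.15, from 10.96, 10.83 and 10.79 to 10.14, 10.05, 9.74 and 9.66. The young and old samples were separated at both, in opposite directions. Rims2, a scaffold of the active zone, rose by 0.78 ± 0.19 at its brightest probe set and fell by 0.93 ± 0.14 at another. The calcium sensor Syt1 rose by 0.67 ± 0.16 and fell by 0.99 ± 0.25, and the fusion regulator Cplx2 rose by 0.79 ± 0.17 and fell by 1.09 ± 0.23. The same held for the adhesion molecule Ncam1 (1.02 ± 0.28 and −1.28 ± 0.23), the proteasome-bound deubiquitinase Usp14 (1.06 ± 0.20 and −0.57 ± 0.15) and the splicing protein Son (1.08 ± 0.22 and −0.57 ± 0.14). No single direction can be given for these genes. In the same list of 36 there were 3 genes that rose, none of them without young array 1 or without 18 month arrays 2, 3 or 4, and 1 without young array 2 or 10 month array 4. The calcium sensor Syt7 was the 1 that fell (by 1.20 ± 0.18 at its brightest probe set).

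In 40 gene lists the members that rose or fell were counted against 8.21% and 3.03% of all genes. The median change of all genes at the brightest probe set was 0.05. These counts describe the lists and no list was tested.

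Microglial genes rose in 9 of 23 (39.1%; 10 with 12 separate arrays) and fell in 0, with a median change of 0.40. Each of these had 1 well-expressed probe set. Mpeg1, a pore-forming protein of phagocytes, read 8.78, 8.73 and 8.62 in young samples and 10.00, 10.05, 9.67 and 10.08 in old ones, a rise of 1.24 ± 0.18 (adjusted p = 0.00492). The purinergic receptor P2ry13 read 7.16, 7.41 and 7.54 at 2 months and 8.11, 8.32, 8.05 and 8.21 at 18 months, a rise of 0.81 ± 0.12. Neither gene had an overlap. The phagocytic marker Cd68 rose by 1.44 ± 0.29, the receptor Gpr34 by 1.13 ± 0.28 and the microglial membrane protein Tmem119 by 0.51 ± 0.14. For Gpr34 the groups overlapped, as young array 1 (6.55) lay above 18 month array 3 (6.49). Other defining markers did not pass, with changes of 0.14 ± 0.20 for Cx3cr1 and 0.27 ± 0.25 for Aif1. Csf1r changed by −0.18 ± 0.22 at its brightest probe set and had mixed signs, with 1 of 3 probe sets called higher. The lowest change of the list at a brightest probe set was −0.71. Without young array 1 the count was 5, and over the other samples left out it was 6 to 11.

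Lysosomal genes rose in 11 of 37 (29.7%; 13 with 12 separate arrays) and fell in 0, with a median change of 0.36. Proteases of the lysosome made up most of them. Ctsz read 8.84, 9.40 and 9.29 at its brightest probe set at 2 months and 10.60, 9.96, 10.61 and 10.30 at 18 months, a rise of 1.19 ± 0.19 (adjusted p = 0.00681). Ctsd read 11.38, 11.34 and 11.63 and then 11.92, 12.02, 12.18 and 12.11, a rise of 0.61 ± 0.11. Ctsb rose by 0.60 ± 0.15 and was higher at all 4 of its probe sets, of which 2 were called. Outside the proteases, the cholesterol exporter Npc1 rose by 1.22 ± 0.33, the glucuronidase Gusb by 1.14 ± 0.16 and the sialidase Neu1 by 0.84 ± 0.22. Npc1 varied among the old samples (8.07, 8.93, 8.36 and 9.11). Ctss, on this list too, was also counted with the microglial genes. A further 5 members had called probe sets with mixed signs, among them Ppt1, Lamp2 and Grn. The list count was 3 without young array 1, 6 without young array 2, 6 without 10 month array 4, and 6, 5 and 4 without 18 month arrays 2, 3 and 4.

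The list of glycolysis and the citric acid cycle, which also holds members of the malate-aspartate shuttle, rose in 12 of 39 genes (30.8%; 14 with 12 separate arrays) and fell in 0, with a median change of 0.30. Its largest rise was that of the shuttle transaminase Got1 (1.96 ± 0.25). Pfkm, the muscle form of the rate-limiting phosphofructokinase, read 11.73, 11.87 and 12.35 at 2 months and 12.69, 12.87, 12.96 and 12.99 at 18 months, a rise of 0.89 ± 0.16 (adjusted p = 0.0103). Lactate dehydrogenase A (Ldha) read 11.16, 11.58 and 11.62 and then 12.30, 12.12, 12.15 and 12.25, a rise of 0.75 ± 0.13. In both the old samples were all above the young. The mitochondrial aspartate carrier Slc25a12 rose by 0.97 ± 0.16, the dehydrogenase subunit Dld by 1.11 ± 0.26 and the oxoglutarate carrier Slc25a11 by 0.90 ± 0.22. Suclg2, a subunit of succinyl-CoA ligase, was called at both of its probe sets (1.25 ± 0.30 and 0.54 ± 0.14). Citrate synthase (Cs), Aldoa and 5 others had mixed signs. Oxidative phosphorylation genes rose in 3 of 42 (7.14%) with a median change of −0.04. The count of the glycolysis list was 3 without young array 1, 7 without young array 2, and 7 and 6 without 18 month arrays 2 and 4, and that of oxidative phosphorylation was 0 without young array 1.

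Mature oligodendrocyte genes rose in 4 of 16 and fell in 0, with a median change of 0.04 (4 and 1 with 12 separate arrays). The myelin genes Mbp (0.03 ± 0.09), Mag (0.05 ± 0.17) and Mog (−0.23 ± 0.16) were not called, and Gsn, which encodes an actin-severing protein, had mixed signs with 2 well-expressed probe sets called lower (−0.98 ± 0.18 at the brightest). Ermn, a cytoskeletal protein of myelinating cells, read 11.91, 11.92 and 11.97 at its brightest probe set at 2 months and 12.67, 12.89, 12.76 and 12.79 at 18 months, a rise of 0.84 ± 0.13 with a clear gap. Carbonic anhydrase Car2 rose by 0.82 ± 0.13, the myelin protein Pmp22 by 0.68 ± 0.11 and the aspartoacylase Aspa by 0.44 ± 0.12. Oligodendrocyte precursor genes rose in 0 of 9 and fell in 3 (1 and 3 with 12 separate arrays). The matrix glycoprotein Tnr read 10.57, 10.25 and 10.41 in young samples and 9.45, 9.71, 9.71 and 10.02 in old ones and fell by 0.69 ± 0.14. Enpp6, a phosphodiesterase of newly formed oligodendrocytes, fell by 0.64 ± 0.14 at its brighter probe set. The proteoglycan Cspg4 (NG2) was called at its dimmer probe set only (fell by 0.42 ± 0.11). The number of precursor genes that fell was 0 without young array 1 and 1 without young arrays 3 and 4 or without 18 month array 4. Astrocyte genes rose in 2 of 16, namely Acsbg1 (0.77 ± 0.17) and Mlc1 (0.59 ± 0.16), with a median change of 0.47. This count was 0 without young array 1 and ran up to 4 without 10 month array 3.

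Genes of immature neurons rose in 0 of 19 and fell in 3 (15.8%), with a median change of 0.05, and with 12 separate arrays 1 rose and 3 fell. Stmn2, a microtubule regulator of growing neurites, was called higher at its brightest probe set (1.25 ± 0.23, adjusted p = 0.0118), whose other probe set changed by −0.12 ± 0.33. Dpysl3 was called higher at its brightest probe set (0.57 ± 0.14) and Sox4 lower at a dimmer one (−1.05 ± 0.25), also with mixed signs. Marcksl1, a substrate of protein kinase C in growing neurites, read 11.86, 12.02 and 11.60 at its brightest probe set at 2 months and 10.47, 11.00, 10.73 and 10.74 at 18 months, and fell by 1.09 ± 0.18. The transcription factor Sox11 read 8.94, 8.63 and 8.75 and then 7.54, 8.17, 7.45 and 8.37, a fall by 0.89 ± 0.21. All 4 probe sets of either gene were lower at 18 months, 3 of them called for Marcksl1 and 2 for Sox11. Cd24a, a surface glycoprotein of young neurons, was called at 1 of 3 probe sets (fell by 1.01 ± 0.22). Without young array 1 or without 18 month array 3, 1 of the 3 was left.

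Chromatin and DNA methylation genes rose in 4 of 57 (7.02%) and fell in 5 (8.77%), or 5 and 9 with 12 separate arrays. Dnmt1, the maintenance DNA methyltransferase, read 9.59, 9.38 and 9.25 in young samples and 8.61, 8.78, 8.48 and 8.78 in old ones, and fell by 0.75 ± 0.12 (adjusted p = 0.00721). Another probe set of Dnmt1 changed by −0.06 ± 0.16. The histone methyltransferase Kmt2d fell by 0.73 ± 0.15, the methylcytosine oxidase Tet3 by 0.68 ± 0.13 and the demethylase Kdm2a by 0.54 ± 0.11. The demethylase Kdm6b fell by 0.81 ± 0.16 at its dimmer probe set and was not called at the brighter one. The remodelling subunit Arid1a, by contrast, rose by 0.89 ± 0.21, the demethylase Kdm3a by 0.92 ± 0.17 and the methyltransferase Setd2 by 0.66 ± 0.15. The list had 0 that rose and 1 that fell without young array 1, 2 that rose without young array 2 or 18 month array 3, and 7 and 10 without 10 month array 3.

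Ubiquitin ligases and proteases rose in 8 of 56 (14.3%) and fell in 2 (3.57%), and proteasome subunits rose in 6 of 33 (18.2%) and fell in 1. Usp8, an endosomal deubiquitinase, read 8.13, 8.51 and 8.89 at 2 months and 10.14, 9.68, 9.92 and 9.82 at 18 months, a rise of 1.38 ± 0.21. Psmd8, a subunit of the proteasome cap, rose by 1.10 ± 0.21. The mitochondrial deubiquitinase Usp30 fell by 0.55 ± 0.15 and had the same sign at its second probe set. Protein phosphatase 1 and 2A genes rose in 4 of 28 and fell in 0, among them the catalytic subunit Ppp2cb, which read 8.43, 9.17 and 9.02 and then 10.64, 10.27, 10.29 and 10.39 (1.52 ± 0.26). RNA splicing genes had mixed signs in 14 of 54, where 856 of 12231 genes (7%) had, a share that depends on the number of probe sets per gene, with 5 that rose and 3 that fell. Without young array 1 the numbers that rose were 3 for ubiquitin, 0 for proteasome and 1 each for phosphatase and splicing genes. Without 18 month array 1 proteasome genes rose in 3. The ubiquitin genes that fell were 0 to 3, and the splicing genes 0 to 8 that rose and 0 to 4 that fell, over all samples left out.

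Neurotransmitter receptors rose in 4 of 33 (12.1%) and fell in 1. The nicotinic subunit gene Chrna7 read 9.83, 9.82 and 10.17 in young samples and 10.81, 10.75, 10.42 and 10.71 in old ones, a rise of 0.74 ± 0.18. The metabotropic glutamate receptor Grm8 rose by 1.05 ± 0.28 and the GABA-A subunit Gabrb2 by 0.62 ± 0.16 at its brightest probe set, while the glycine receptor subunit Glra1 fell by 0.83 ± 0.20. Dopaminergic neuron genes rose in 3 of 23 and fell in 2. A further 2 had called probe sets with mixed signs. Calb1 was called higher at its brightest probe set (0.70 ± 0.15), and Nr4a2 was called lower at 1 of 5. Th, the rate-limiting enzyme of dopamine synthesis, read 12.68, 12.99 and 13.33 in young samples and 13.82, 13.87, 13.86 and 13.83 in old ones, a rise of 0.84 ± 0.14. Chrna6, a nicotinic subunit of dopaminergic neurons, rose by 0.68 ± 0.15 at its brightest probe set, and the receptor gene Ret was called at its dimmer one (0.91 ± 0.22). Those that fell were the transcription factors Foxa2 (fell by 0.61 ± 0.15) and En1 (fell by 0.54 ± 0.11). These counts depended on single arrays, since over the samples left out 0 to 6 receptor genes rose, 1 to 5 dopaminergic genes rose and 0 to 2 fell, with the lowest of each without young array 1. Lists with none that rose or fell included GABAergic neurons (7 measured, of which 1 rose with 12 separate arrays) and meninges (6 measured).

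**Figure D4:**
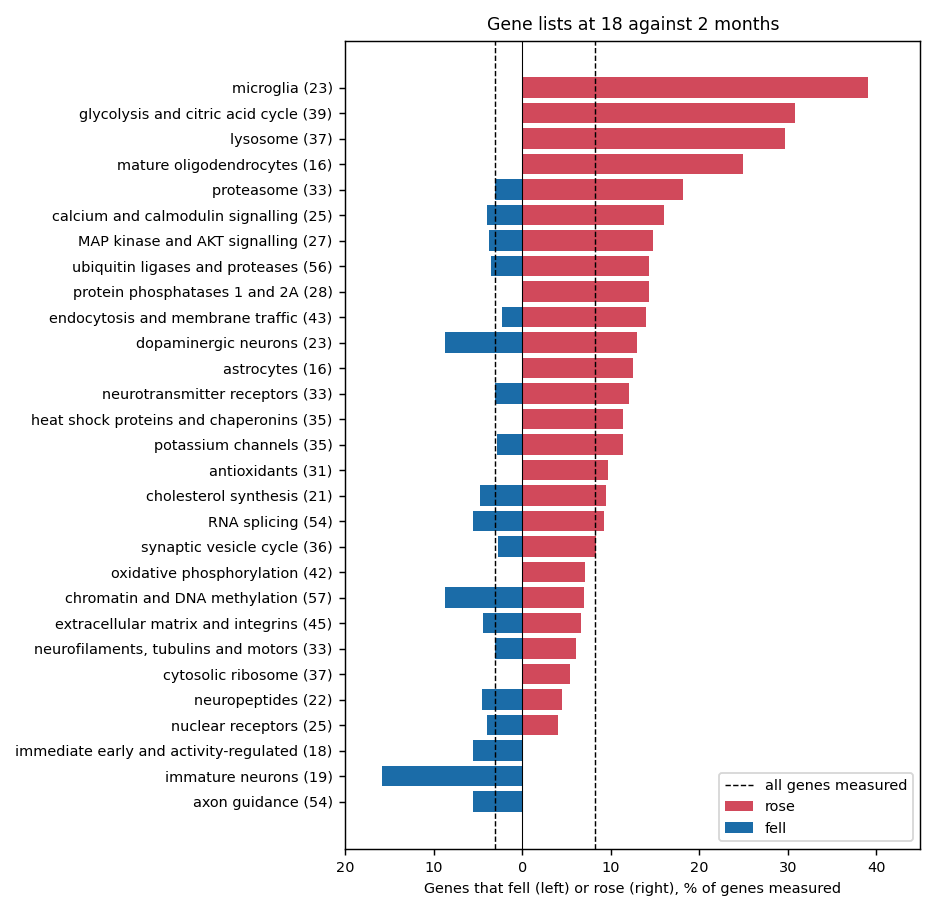
Share of measured genes that rose (red, right) or fell (blue, left) at 18 against 2 months in the lists with 15 or more genes measured, the number in brackets. Dashed lines mark all genes (8.21% rose, 3.03% fell); microglia (39.1%), glycolysis and citric acid cycle (30.8%) and lysosome (29.7%) have the longest red bars.

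**Figure D5:**
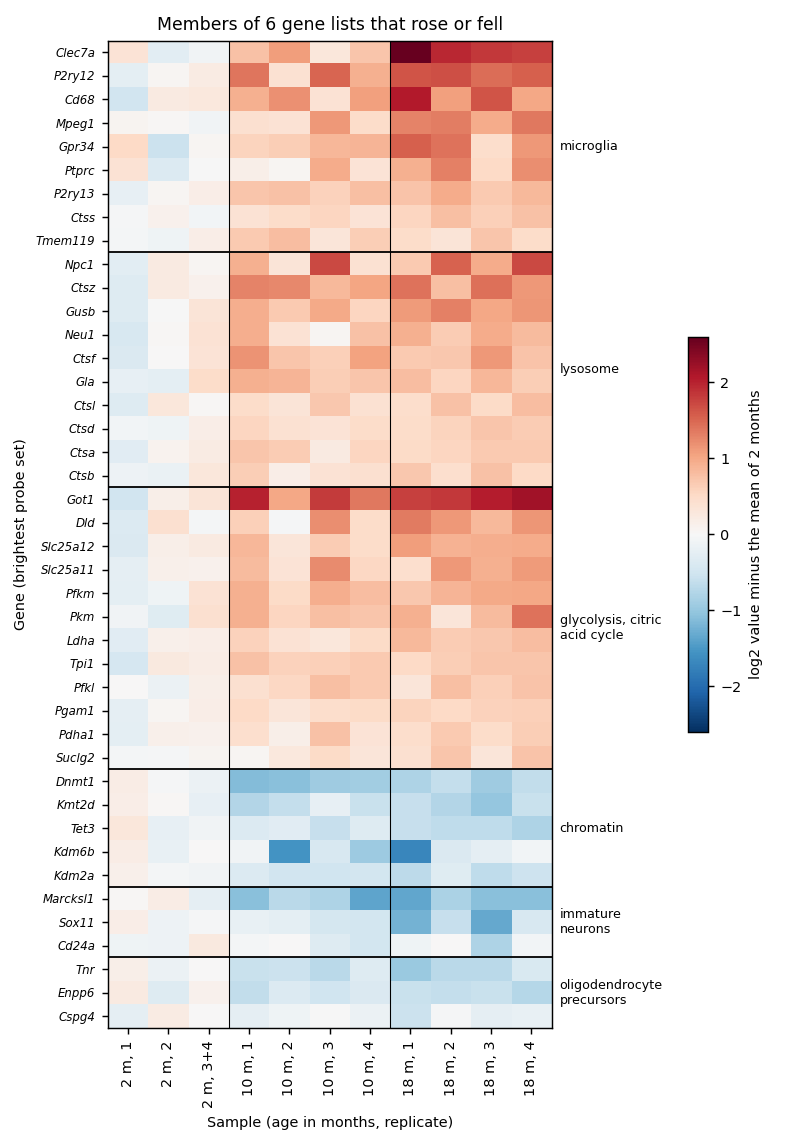
Log2 value at the brightest probe set minus the mean of 2 months (colour) for genes (vertical axis) of 6 lists in each sample (horizontal axis; age in months and replicate). Genes that rose are shown for microglia, lysosome and glycolysis, genes that fell for the others, and a gene on 2 lists is drawn once; 10 month samples lie between the ages for most genes, and Kdm6b, Cd24a and Cspg4 were called at another probe set.

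Promoter composition and gene length were set beside these groups without a test. The median GC content of the promoter window was 61.3% for all genes with one (80.9% of 12231), 60.7% for genes that rose and 62.0% for genes that fell. The median gene length was 24.4 kb for all genes, 27.3 kb for genes that rose and 21.2 kb for genes that fell.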

How the data were processed

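RNA of the VTA was measured on Affymetrix mouse expression arrays after a 2-cycle labelling from 50 ng of total RNA. Log2 values for each probe set were made by the authors with RMA and deposited. Limma 3.4.5 also stands in the submitters' processing notes. Of 45101 probe sets, 64 controls were left out and 45037 tested. The annotation of the array listed 34945 with 1 gene, 932 with several (not named) and 9160 with none, and 34741 matched a RefSeq gene table by number. One fit over the 3 ages was made by limma 3.58.1 (R 4.3.3) without a covariate, and p-values were adjusted by Benjamini-Hochberg over all 45037. The thresholds (adjusted p 0.05, 1.3-fold) are those of the study. The spread behind each p-value is that between pools, and precision is limited by how few arrays there are. Of the genes called at every well-expressed probe set, the first 15 in each direction by their smallest change were named, besides up to 6 members of each list and members called both ways. The list members named were not always those with the largest change. Clec7a of the microglial list (2.05 ± 0.23) and Usp11 of the ubiquitin list (1.94 ± 0.32), for example, rose more than those named. The members, lists and rules were chosen with earlier results of these data known. Some list members named for not passing, and the single arrays singled out, were chosen after their values were seen. The fit was tested on simulated data. Alternatives were 12 separate arrays, 2 ages alone, median centring, covariates, filters, a replicate block and each sample left out.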

Additional observations from a re-analysis of the deposited data

How the results depend on the processing

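The counts of called probe sets moved with the samples and with the covariates. Leaving out each sample in turn gave 294 to 3134 probe sets higher and 129 to 2192 lower, 63 to 562 agreeing genes higher and 26 to 283 lower, and 4 to 75 and 0 to 28 genes called at every well-expressed probe set. The lowest values were found without young array 1 and the highest without 10 month array 3. Without young array 2 the totals were 1066 higher and 602 lower, and without any one 18 month array 1937 to 2111 in all. With the 3′ to 5′ measure as a covariate all 6 counts were 0, and Atp6v1b2 reversed (log2 change −0.0778 at its brightest probe set). The signs of the other 29 named genes were kept there, where 2985 of the 3359 called probe sets kept theirs. Under every other setting all 30 kept their sign. So did all 3359 called probe sets, save where dim ones were left out, as the settings reuse the same samples. Kept signs are thus not particular to the 30 genes. With the first principal component as a covariate 4519 probe sets were higher and 4193 lower, 664 agreeing genes higher and 484 lower, and 127 and 70 genes called at every probe set. A limit of 2-fold gave 517, 177, 138, 35, 6 and 0 in the same order. Median centring gave 120 agreeing genes lower, and 53 and 8 genes called at every probe set. Genes higher at every probe set were 55 with 12 separate arrays and 53 with the samples of 2 and 18 months alone. Genes lower at every probe set were 8 with trended and robust variance and 10 with no minimum level. Taking only probe sets above the upper quartile gave 205 agreeing genes higher and 70 lower.

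With the replicate number as a block on 12 separate arrays, 2548 probe sets were called and 10 genes were lower at every probe set. Same-numbered arrays did not deviate together (correlations of −0.61 to 0.43 over 12 pairs, and 0 arrays were closest to their own number), so that the numbers do not pair the samples. MHC class I had 3 genes that rose in every setting except the 3′ to 5′ covariate (0) and the first component (6). Microglial counts ran from 5 to 11, lysosomal from 3 to 13 and glycolytic from 3 to 14 over the samples left out.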
